A study of Mus musculus with 15 samples.

Results

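Interferon-stimulated genes were followed here as 36 members of the 36528 Entrez gene IDs counted in the intestine of mouse embryos. They were listed by name as genes that interferons are known to induce. The list was drawn up with earlier results of these data known, its rule uses no measured value, and all 36 were found by symbol. Every member had a count in each of the 15 libraries, and all 36 passed the filter on low counts (edgeR's filterByExpr with a minimum count of 10). RNA came from small intestine at embryonic stage E16.5, from 5 libraries of each of 3 genotypes. All 3 genotypes lacked Mlkl, the executioner of necroptosis. They differed at Casp8, the initiator caspase that starts apoptosis and restrains necroptosis: wildtype Casp8 with Mlkl knockout (called wildtype here), Casp8 knockout with Mlkl knockout (knockout), and Casp8 C362A knockin with Mlkl knockout (C362A). C362A replaces the catalytic cysteine of caspase-8. The tissue of C362A embryos was labelled as inflamed and that of the other genotypes as normal. No embryo with intact Mlkl was measured, so these libraries show nothing of the interferon-stimulated genes in a fully wildtype intestine.

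Type I and type III interferons are secreted proteins that bind receptors coupled to the kinases Jak1 and Tyk2. These kinases activate transcription factors, among them Stat2, which acts with Irf9 in a complex that binds the interferon-stimulated response element of target promoters. The genes so induced encode antiviral effectors, sensors of foreign RNA and parts of the pathway itself, and in the intestine both epithelium and resident immune cells can make them. Values below are read counts per 1000000 counts of a library (CPM), scaled by TMM factors, which correct for differences in RNA composition between libraries. Fold changes are log2 values from 1 edgeR quasi-likelihood fit of 18370 genes in all 15 libraries. A gene was called changed at an adjusted p under 0.05 (Benjamini-Hochberg over all genes tested).

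The response element is visible in the promoters of many members, and 5 are shown because results below turn on them. The RefSeq promoter table (GRCm38) had a window of 250 bases before to 50 bases after a start site for 27 of the 36 members. It had none for Dhx58, Ifi27l2a, Mx1, Mx2, Oas2, Parp14, Parp9, Rtp4 and Usp18. A core of the response element was searched on both strands, written GAAA, any 2 bases and GAAA, or TTTC, any 2 bases and TTTC, and overlapping matches were counted. It was present in 15 of the 27 members (55.6%) and in 3.99% of the 27025 genes in the table. The sequences are the 250 bases before a start site, 5′ to 3′ on the strand of the gene, with the response element cores in capitals. Isg15 (chr4:156200819-156201068, minus strand) held 3 overlapping cores and Bst2 (chr8:71537473-71537722, minus strand) held 2. Ifit3 (chr19:34583279-34583528, plus strand) and its near copy Ifit3b (chr19:34607707-34607956, plus strand) held 2 each, and Apobec3 (chr15:79892158-79892407, plus strand) held 1.
Isg15: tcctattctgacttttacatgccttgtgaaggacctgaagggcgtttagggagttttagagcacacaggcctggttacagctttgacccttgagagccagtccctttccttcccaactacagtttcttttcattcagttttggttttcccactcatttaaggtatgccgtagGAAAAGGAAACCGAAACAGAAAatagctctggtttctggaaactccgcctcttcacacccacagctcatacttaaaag
Bst2: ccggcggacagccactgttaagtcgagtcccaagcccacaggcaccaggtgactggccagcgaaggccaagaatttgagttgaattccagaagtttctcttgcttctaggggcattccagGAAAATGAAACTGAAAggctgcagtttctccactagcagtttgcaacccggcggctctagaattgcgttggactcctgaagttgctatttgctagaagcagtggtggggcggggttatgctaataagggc
Ifit3: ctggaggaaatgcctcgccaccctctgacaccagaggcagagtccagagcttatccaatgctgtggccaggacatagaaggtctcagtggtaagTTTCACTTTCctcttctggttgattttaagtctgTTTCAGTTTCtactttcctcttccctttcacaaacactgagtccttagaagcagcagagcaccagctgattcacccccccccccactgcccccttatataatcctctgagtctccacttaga
Ifit3b: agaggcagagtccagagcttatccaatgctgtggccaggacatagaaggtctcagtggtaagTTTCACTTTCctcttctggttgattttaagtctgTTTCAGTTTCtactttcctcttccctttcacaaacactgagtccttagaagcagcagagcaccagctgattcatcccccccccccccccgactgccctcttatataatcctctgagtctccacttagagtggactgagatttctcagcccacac
Apobec3: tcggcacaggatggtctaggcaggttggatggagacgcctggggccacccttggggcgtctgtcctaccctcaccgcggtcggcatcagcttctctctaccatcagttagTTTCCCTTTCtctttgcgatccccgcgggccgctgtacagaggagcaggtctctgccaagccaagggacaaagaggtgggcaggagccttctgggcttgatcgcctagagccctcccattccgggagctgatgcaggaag
The core of Apobec3 begins 140 bases before the start site, and the window of another Apobec3 start site held none. Ifit2, which with Apobec3 had the smallest p of the members in C362A against wildtype, had 2 windows and no core in either. A match says only that these letters are present.

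Libraries held between 31896399 and 38532127 counts, and the members together took 0.0352% to 0.0597% of them. Casp8 lay between 12.2 and 16.54 CPM in knockout libraries, between 62.3 and 77.5 CPM in wildtype and between 64.4 and 72.8 CPM in C362A, so the knockout libraries matched their labels, and the point mutation is not visible in counts. Mlkl lay between 0.187 and 0.839 CPM over the 15 libraries. The labels name neither litters nor replicate numbers, so p-values measure the spread between these libraries. Replicates were numbered here within each genotype in the order of the deposited samples, and equal numbers in different genotypes are not matched. Their sample ID numbers form 1 consecutive series without a gap, in which libraries of a genotype stand in blocks. The series was divided here into 2 runs by the order of these blocks. The first run holds 2 libraries of each genotype and the second holds 3. No label says what a run stands for. In bulk tissue, fewer cells of a type and less RNA per cell cannot be told apart. Y-linked transcripts summed to more than 1 CPM in 4 wildtype, 4 knockout and 2 C362A libraries, and to at most 0.188 CPM in the others.

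In each genotype 1 library stood apart for the members. Wildtype replicate 4 was the highest wildtype library for 30 of 36 members, against 28.3% of all genes tested. Knockout replicate 2 was the highest knockout library for 28 members, against 14.4% of all genes, and C362A replicate 5 was the highest of its genotype for 23, against 32.9%. The summed level of the 36 members was 342, 406, 444, 584 and 367 CPM in wildtype replicates 1 to 5. It was 430, 584, 480, 413 and 505 CPM in knockout and 360, 441, 398, 448 and 591 CPM in C362A replicates 1 to 5. The summed levels of the 3 genotypes overlapped, with their highest libraries between 584 and 591 CPM, while 3 wildtype and 2 C362A libraries lay below every knockout library. A sum is set mostly by abundant members such as Stat2. By the mean log2 CPM of the 36, the highest library was at 2.80 in wildtype, 3.08 in knockout and 3.11 in C362A. The lowest was at 1.94, 2.21 and 2.15, so the genotypes overlapped by this measure too. The lowest wildtype library for 17 members was replicate 1, against 25.6% of all genes. In knockout the lowest was replicate 4 for 18 members, against 30.6%, and replicate 1 for 16, against 13.4%. The lowest C362A library for 20 members was replicate 1, against 25.9%. Both the knockout and the C362A library at the top belong to run 1 of the sample ID numbers, while the top wildtype library belongs to run 2. The map of all members by library shows these columns.

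**Figure D1:**
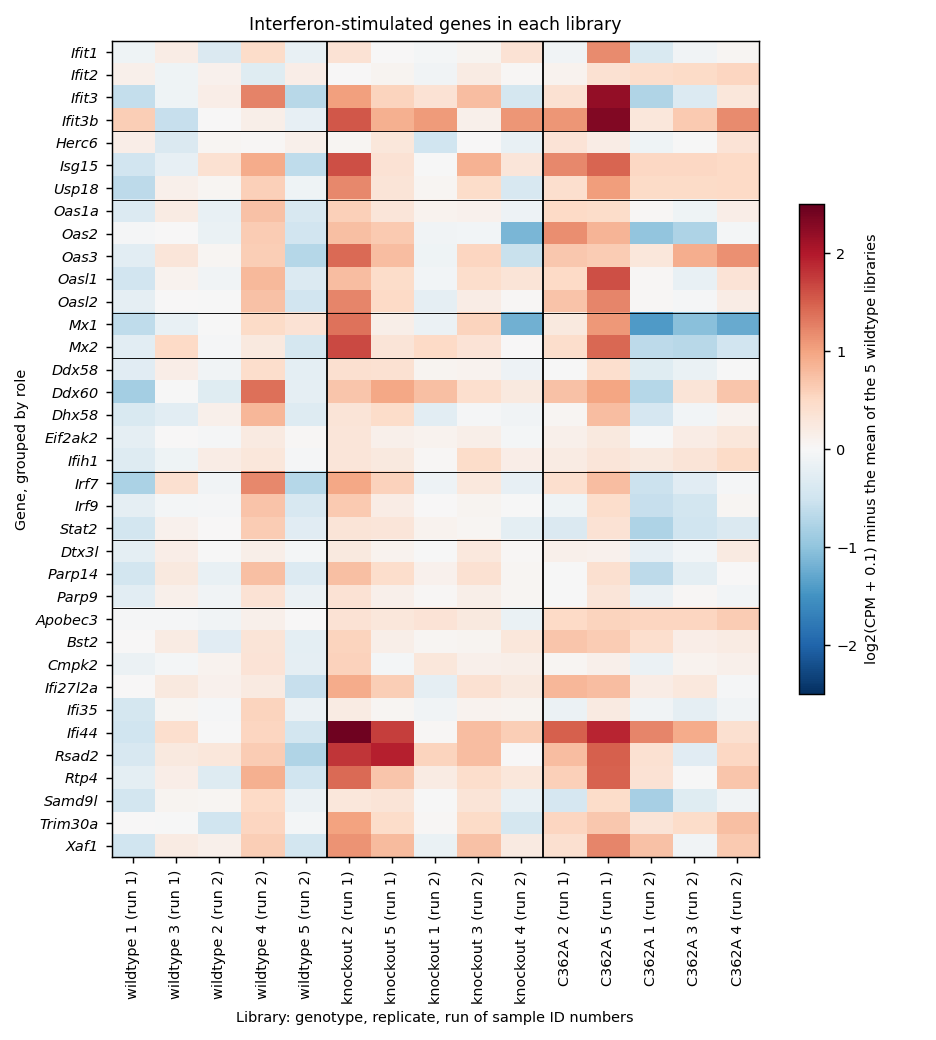
Level of each of the 36 members (rows, grouped by role) in each of the 15 libraries (columns, by genotype and run of sample ID numbers), as log2(CPM + 0.1) minus the mean of the 5 wildtype libraries. The columns of wildtype 4, knockout 2 and C362A 5 hold the highest value of their genotype in 30, 28 and 23 of the 36 rows, and the row of Apobec3 is above the wildtype mean by a like amount in all 5 C362A columns.

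Per length, the members spanned a wide range in this tissue. Bst2, a membrane tether that holds budding virus on the cell, had the highest mean level of the 36, at 26.4 RPKM over the 15 libraries (18.3 to 35.9). Ifi35, an interferon-induced leucine zipper protein, followed at 12.7 RPKM (9.23 to 18.7), and Stat2, a subunit of the complex that binds the response element, at 10.4 RPKM (6.21 to 16.4). At the other end stood Oas3, a synthase of the messenger that activates RNase L, at 0.115 RPKM (0.0385 to 0.236). Mx1, a GTPase that blocks viral ribonucleoproteins, had 0.141 RPKM (0.0290 to 0.377) and Ifit3b 0.144 RPKM (0.0259 to 0.465). The median member had 2.68 RPKM. The range of Mx1 between libraries was far wider, relative to its mean, than that of Bst2.

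The first comparison asks whether the catalytically dead enzyme changed the interferon-stimulated genes against wildtype Casp8. Apobec3, a cytidine deaminase that restricts retroviruses, rose in C362A, and it was the only one of the 36 members called, against 0.0817% of all genes. Of the 36 members, 28 had a positive log2 fold change, against 51.4% of all genes, and their median was 0.29, against 0.01 over all genes. By unadjusted p under 0.05, 9 members were higher and 0 lower, against 8.08% of all genes higher. The 5 C362A libraries lay above all 5 wildtype libraries for 1 member, Apobec3, against 0.860% of all genes. DESeq2 and limma-voom each called the same number, 1 member. Without C362A replicate 5 the median of the members was 0.14, and without wildtype replicate 4 it was 0.38. Within run 1 of the sample ID numbers the median was 0.65, and within run 2 it was −0.072.

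Apobec3 (chr15:79892058-79918218, Entrez 80287) measured 9.40, 8.996, 9.34, 10.4 and 9.57 CPM in wildtype replicates 1 to 5. It measured 12.0, 12.3, 11.2, 8.48 and 11.6 CPM in knockout and 13.9, 13.4, 13.9, 14.9 and 14.0 CPM in C362A replicates 1 to 5. Every C362A library was above every wildtype and every knockout library, and knockout replicate 4 alone lay below all wildtype libraries. The means were 9.55 ± 0.534 CPM in wildtype, 11.1 ± 1.53 CPM in knockout and 14.0 ± 0.525 CPM in C362A (SD, n = 5). The log2 fold change of C362A against wildtype was 0.56 (SE 0.09, edgeR adjusted p = 0.0245). Under the alternative settings with both runs of sample ID numbers in the fit it ranged from 0.53 to 0.58, with adjusted p between 3.43e-05 and 0.12. Within run 1 alone it was 0.55 and not called, in a fit where edgeR called 0 of all 18629 genes. Within run 2 alone it was 0.56 with an adjusted p of 0.0218, where 5.07% of all genes were called higher. The call was lost when any of C362A replicates 1 to 4 or wildtype replicates 1, 2, 3 or 5 was left out, and with a term for Y-linked expression (adjusted p = 0.0946). Against the knockout, C362A had 0.33 (SE 0.09, edgeR adjusted p = 0.317), and knockout against wildtype had 0.22 (SE 0.09, edgeR adjusted p = 0.9999).

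Reads do not carry the strand in these libraries, so the genes that overlap Apobec3 are given beside it. Bases shared by overlapping genes, here and below, are those of whole gene spans, introns included. Cbx7, a Polycomb subunit, shares 2415 bases with it and had −0.14 (SE 0.10, edgeR adjusted p = 0.479) for C362A against wildtype. The noncoding D730005E14Rik shares 1081 bases with Apobec3, had 337 counts in all libraries against 6054 for Apobec3, and had 0.96 (SE 0.25, edgeR adjusted p = 0.285). Of the 50-base stretches of Apobec3 transcripts, 5.72% also occur in D730005E14Rik. The part of that gene in the Apobec3 value was not tested.

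The IFIT proteins bind viral RNA and block its translation. All 4 members, Ifit1, Ifit2, Ifit3 and Ifit3b, had positive fold changes of C362A against wildtype, with a median of 0.51, and none was called. Ifit2 (chr19:34550550-34576534) measured 11.7, 11.5, 9.998, 8.76 and 12.2 CPM in wildtype, 10.1, 10.9, 12.4, 10.9 and 11.3 CPM in knockout and 14.6, 11.5, 14.9, 15.6 and 14.1 CPM in C362A replicates 1 to 5. For Ifit2, C362A replicate 2 lay within the wildtype range and the other 4 C362A libraries above it. Its log2 fold change was 0.38 (SE 0.10, edgeR adjusted p = 0.285). Ifit2 was called when C362A replicate 5 was left out, at 0.38 with an adjusted p of 0.0429. In that fit 4.29% of all genes were called higher, against 0.0817% called in either direction with all libraries. With both runs of sample ID numbers in the fit, the adjusted p of Ifit2 over the alternatives lay between 0.0429 and 0.654.

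Ifit3b was counted thinly, with 0.260, 0.137, 0.0595, 0.163 and 0.107 CPM in wildtype, 0.393, 0.598, 0.159, 0.405 and 0.338 CPM in knockout and 0.187, 0.406, 0.270, 0.434 and 1.08 CPM in C362A libraries. C362A replicate 5 was the highest of the 15 and the genotypes overlapped. The log2 fold change of Ifit3b was 1.69 (SE 0.50, edgeR adjusted p = 0.285), the largest of the 36. Its neighbour Ifit3 ranged from 0.426 to 1.90 CPM in wildtype and from 0.405 to 3.78 CPM in C362A, and had 0.64 (SE 0.56, edgeR adjusted p = 0.556). Between these copies, 51.2% of the 50-base stretches of Ifit3 and 44.5% of those of Ifit3b are shared, so counts of uniquely aligned reads can understate both. Ifit1 and Ifit3b also overlap Ifit1bl1, which had 872 counts in all libraries against 8671 for Ifit1 and 174 for Ifit3b. Ifit1 had 0.23 (SE 0.25, edgeR adjusted p = 0.657), with C362A replicate 5 at 34.1 CPM and the other 4 between 11.5 and 15.6 CPM.

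Isg15 is a ubiquitin-like protein that is attached to other proteins, Herc6 is the ligase that attaches it in the mouse, and Usp18 removes it. The 3 members had a median of 0.58, all positive, and none was called. Isg15 (chr4:156199424-156200818) measured 1.04, 1.97, 1.28, 2.94 and 0.933 CPM in wildtype, 1.49, 4.79, 2.81, 1.87 and 1.95 CPM in knockout and 2.18, 3.54, 2.19, 2.14 and 4.26 CPM in C362A replicates 1 to 5. C362A replicates 2 and 5 and knockout replicate 2 were the 3 highest libraries, and wildtype replicate 4 lay above the remaining C362A libraries. Isg15 had 0.81 (SE 0.36, edgeR adjusted p = 0.296), Usp18 had 0.58 (SE 0.28, edgeR adjusted p = 0.318) and Herc6 had 0.15 (SE 0.16, edgeR adjusted p = 0.624).

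The OAS family makes or resembles the synthases of oligoadenylate, the messenger that switches on RNase L. All 5 members (Oas1a, Oas2, Oas3, Oasl1 and Oasl2) had positive fold changes with a median of 0.45, and none was called. Oas3 measured 0.289, 0.384, 0.476, 0.621 and 0.187 CPM in wildtype, 0.337, 1.14, 0.583, 0.218 and 0.703 CPM in knockout and 0.467, 0.649, 0.781, 0.926 and 0.629 CPM in C362A replicates 1 to 5. Its wildtype and C362A ranges overlapped through wildtype replicates 3 and 4. Oas3 had 0.83 (SE 0.40, edgeR adjusted p = 0.316), and the other 4 lay between 0.18 (Oas1a) and 0.55 (Oasl1). Of the 50-base stretches of Oas1a, 57.6% also occur in Oas1g.

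The antiviral GTPases Mx1 and Mx2 had values of opposite sign, and neither was called. Mx1 measured 0.231, 0.411, 0.357, 0.621 and 0.560 CPM in wildtype, 0.365, 1.22, 0.663, 0.125 and 0.469 CPM in knockout and 0.0934, 0.514, 0.1503, 0.116 and 0.989 CPM in C362A replicates 1 to 5. In C362A, replicates 1, 3 and 4 were below every wildtype library, replicate 5 was above all of them, and replicate 2 was within their range. Mx1 had −0.22 (SE 0.61, edgeR adjusted p = 0.875) and Mx2 had 0.27 (SE 0.46, edgeR adjusted p = 0.787).

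The RNA sensors Ddx58 (RIG-I), Ifih1 (MDA5) and Dhx58 (LGP2), the helicase Ddx60 and the kinase Eif2ak2 (PKR) centred on 0.16 (median), 4 of 5 being positive, and none was called. Ifih1 measured 11.9, 16.9, 13.8, 18.2 and 14.7 CPM in wildtype, 15.3, 18.5, 20.5, 16.7 and 17.8 CPM in knockout and 17.7, 17.2, 18.6, 20.9 and 18.5 CPM in C362A replicates 1 to 5. C362A libraries of Ifih1 lay in the upper part of the wildtype range or above it. Ifih1 had 0.30 (SE 0.11, edgeR adjusted p = 0.285), and the other 4 lay between −0.02 (Ddx58) and 0.32 (Ddx60).

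The 3 transcription factors of the response, Stat2, Irf9 and Irf7, all had negative values, with a median of −0.14 and none called. Stat2 measured 35.7, 49.0, 52.4, 75.7 and 40.1 CPM in wildtype, 51.9, 61.1, 50.5, 41.3 and 60.3 CPM in knockout and 28.5, 37.9, 34.4, 37.9 and 62.7 CPM in C362A replicates 1 to 5. C362A replicates 1 and 3 lay below every wildtype library, replicates 2 and 4 near the lower end of their range, and replicate 5 lay above every wildtype library but replicate 4. Stat2 had −0.33 (SE 0.22, edgeR adjusted p = 0.438), Irf9 had −0.14 (SE 0.22, edgeR adjusted p = 0.767) and Irf7, which amplifies interferon production, had −0.05 (SE 0.38, edgeR adjusted p = 0.956). The ADP-ribosyltransferases Parp9 and Parp14 and the ligase Dtx3l, partner of Parp9, were near 0, at 0.01 (SE 0.11), −0.13 (SE 0.23) and 0.04 (SE 0.10). Parp9 shares 5871 bases with the noncoding Gm15564, which had 20734 counts in all libraries against 17636 for Parp9, and 558 bases with Dtx3l. These are bases of whole gene spans, introns included. Of the 50-base stretches of Parp9 transcripts, 7.71% also occur in other genes, and Dtx3l shared most, with 7.71%. Gm15564 had 0.04 (SE 0.11) for C362A against wildtype, and its part in the Parp9 value was not tested.

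The other effectors numbered 11, with a median of 0.53, 9 positive and Apobec3 alone called. Bst2 (chr8:71534255-71537472) measured 17.8, 14.5, 20.3, 22.1 and 14.97 CPM in wildtype, 18.3, 26.2, 18.6, 21.6 and 19.6 CPM in knockout and 23.9, 28.6, 20.0, 20.4 and 27.5 CPM in C362A replicates 1 to 5. C362A replicates 1, 2 and 5 lay above every wildtype library and replicates 3 and 4 within their range. Bst2 had 0.42 (SE 0.14, edgeR adjusted p = 0.285). Ifi44 measured 0.202, 0.329, 0.476, 0.523 and 0.213 CPM in wildtype, 0.337, 2.23, 0.636, 0.561 and 1.33 CPM in knockout and 0.903, 1.11, 0.721, 0.463 and 1.498 CPM in C362A replicates 1 to 5. C362A replicate 4 and knockout replicate 1 lay within the wildtype range, and all other C362A and knockout libraries above it. Ifi44 had 1.43 (SE 0.48, edgeR adjusted p = 0.285). Trim30a, a ubiquitin ligase that dampens inflammatory signalling, measured 3.04, 2.11, 3.01, 4.41 and 2.90 CPM in wildtype and 3.77, 4.44, 4.18, 5.12 and 4.85 CPM in C362A replicates 1 to 5. Its wildtype replicate 4 overlapped the C362A range, and it had 0.53 (SE 0.23, edgeR adjusted p = 0.294).

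The remaining effectors ran from positive to negative. Xaf1, an antagonist of an apoptosis inhibitor, had 0.62 (SE 0.29), Rsad2 (viperin), which makes a chain-terminating nucleotide, 0.65 (SE 0.41), and Rtp4 0.64 (SE 0.32). Ifi27l2a had 0.44 (SE 0.23), Cmpk2, a mitochondrial nucleotide kinase, 0.04 (SE 0.13), Ifi35 −0.10 (SE 0.14) and Samd9l −0.21 (SE 0.21). None of these 7 was called, and only Xaf1 among them had an unadjusted p under 0.05. Ifi27l2a shares 6057 bases with Ifi27, and Rtp4 shares 1022 bases with Masp1, counted over gene spans with introns. Of the 50-base stretches of Ifi27l2a transcripts, 0.483% occur in other genes, most in Ifi27l2b. For Rtp4 it was 11.6%, most in Gm45338.

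**Figure D2:**
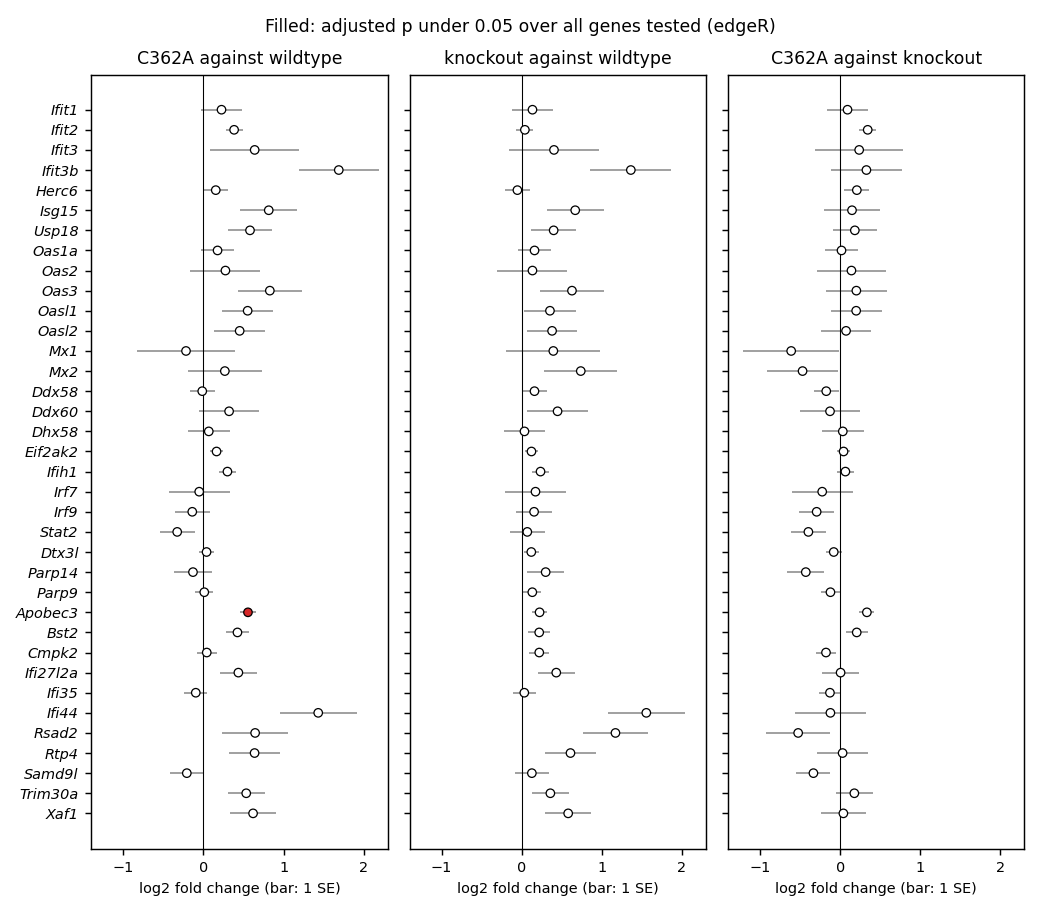
Log2 fold change of each of the 36 members (points, bars are 1 SE) in the 3 genotype comparisons from 1 edgeR fit of 15 libraries. The filled point marks the only call, Apobec3 in C362A against wildtype, and 28, 35 and 21 of the 36 points lie right of 0 in the panels from left to right.

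The second comparison sets the Casp8 knockout against wildtype. It uses the same wildtype libraries as the first, so the values are not independent. No member was called, against 0.0381% of all genes, and DESeq2 and limma-voom called 0 members as well. A positive log2 fold change was found for 35 of 36 members, against 48.2% of all genes, and the exception was Herc6 at −0.05. The median was 0.23, and by unadjusted p under 0.05 there were 5 higher members (Ifi44, Rsad2, Ifit3b, Apobec3 and Ifih1), against 1.20% of all genes, with 0 lower. Without knockout replicate 2 the median was 0.11, and without wildtype replicate 4 it was 0.44. Within run 1 of the sample ID numbers it was 0.71, and within run 2 it was 0.01.

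Rsad2 measured 1.16, 1.92, 1.84, 2.45 and 0.879 CPM in wildtype, 2.33, 5.63, 2.70, 1.56 and 6.25 CPM in knockout and 2.05, 2.70, 1.26, 2.26 and 4.58 CPM in C362A replicates 1 to 5. Knockout replicates 2 and 5 were the 2 highest of the 15 libraries, replicate 4 was within the wildtype range and replicates 1 and 3 were near its top. Rsad2 had 1.17 (SE 0.41, edgeR adjusted p = 0.9999) for knockout against wildtype. Ifi44, with the values given above, had 1.55 (SE 0.48, edgeR adjusted p = 0.9999), and knockout replicates 2 and 5 were again its 2 highest knockout libraries. Ifit3b had 1.36 (SE 0.51, edgeR adjusted p = 0.9999) and Ifih1 0.23 (SE 0.11, edgeR adjusted p = 0.9999).

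Xaf1 measured 1.04, 1.65, 1.76, 2.35 and 1.07 CPM in wildtype, 1.32, 3.37, 2.55, 1.78 and 2.68 CPM in knockout and 2.55, 2.03, 1.41, 2.43 and 3.63 CPM in C362A replicates 1 to 5. Rtp4 measured 2.26, 2.14, 3.01, 5.07 and 1.87 CPM in wildtype, 3.12, 7.29, 3.66, 3.30 and 4.37 CPM in knockout and 3.49, 4.08, 2.67, 4.40 and 7.58 CPM in C362A replicates 1 to 5. Ifi27l2a measured 2.602, 2.80, 3.09, 3.07 and 1.71 CPM in wildtype, 2.22, 5.06, 3.42, 3.12 and 4.03 CPM in knockout and 2.99, 4.71, 3.16, 2.55 and 4.52 CPM in C362A replicates 1 to 5. In all 3 genes knockout replicate 2 was the highest knockout library and the knockout and wildtype ranges overlapped. Xaf1 had 0.58 (SE 0.29), Rtp4 0.61 (SE 0.32) and Ifi27l2a 0.43 (SE 0.23) for knockout against wildtype, each with an edgeR adjusted p of 0.9999. By role, the median was 0.27 in the IFIT family, 0.40 in the ISG15 system, 0.35 in the OAS family and 0.56 for the pair of Mx genes. It was 0.16 in the RNA sensors, 0.15 in the transcription factors, 0.13 for Parp9, Dtx3l and Parp14, and 0.36 in the other effectors.

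The third comparison sets the inactive enzyme against the absent one. No member was called, against 0.0109% of all genes, and DESeq2 and limma-voom called 0 as well. A positive log2 fold change was found for 21 of 36 members, against 53.2% of all genes, with a median of 0.03. At an unadjusted p under 0.05, 2 members were higher in C362A, Apobec3 and Ifit2, against 6.49% of all genes, and 0 were lower. The groups did not overlap for 1 member, Apobec3, against 1.11% of all genes. Ifit2 had 0.34 (SE 0.10, edgeR adjusted p = 0.317), and Bst2 had 0.21 (SE 0.14).

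Among the negative values of this comparison were those of Parp14, Samd9l and Stat2. Parp14 measured 26.4, 41.1, 31.8, 25.3 and 33.4 CPM in knockout and 15.5, 24.4, 20.6, 24.7 and 32.2 CPM in C362A replicates 1 to 5, with −0.43 (SE 0.23, edgeR adjusted p = 0.404). Samd9l, a growth-restraining antiviral factor, measured 46.2, 57.1, 58.0, 40.8 and 58.2 CPM in knockout and 26.2, 34.8, 37.9, 43.9 and 63.8 CPM in C362A replicates 1 to 5, with −0.33 (SE 0.21, edgeR adjusted p = 0.465). Stat2 had −0.40 (SE 0.22, edgeR adjusted p = 0.408). In all 3 genes C362A replicate 5 lay among the knockout libraries or above them, and C362A replicate 1 was the lowest of the 10 libraries. Cmpk2 had −0.18 (SE 0.13) and Herc6 0.21 (SE 0.16). The 3 transcription factors had a median of −0.29, the pair of Mx genes −0.54, the IFIT family 0.28 and the OAS family 0.14.

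**Figure D3:**
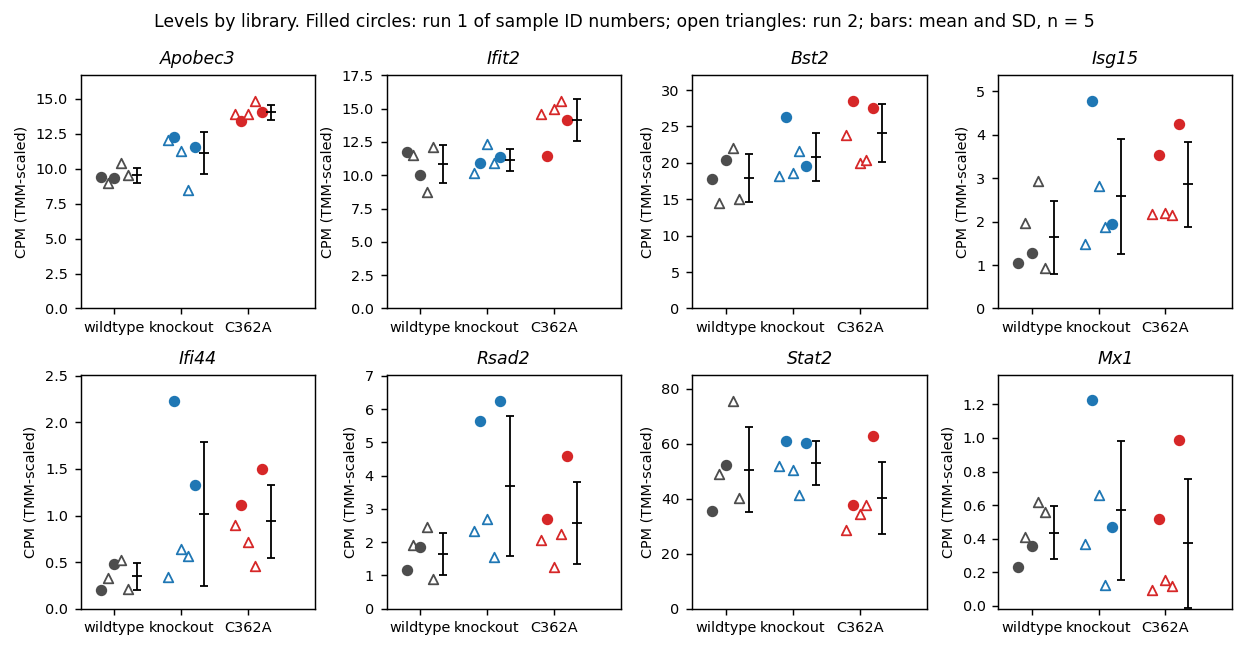
TMM-scaled CPM of 8 members in each library (filled circles run 1 and open triangles run 2 of the sample ID numbers), with the mean and SD of the 5 libraries of a genotype. C362A points of Apobec3 lie above all others between 13.4 and 14.9 CPM, while those of Mx1 fall into 3 libraries at 0.0934 to 0.1503 CPM and 2 at 0.514 and 0.989 CPM.

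The members' fold changes against wildtype lay apart in the 2 runs of sample ID numbers. The fits within runs and the test of their difference were added after the data had been seen, apart from the medians within runs. Within run 1 (2 libraries against 2), all 36 members were positive in C362A against wildtype, against 50.0% of all genes, with a median of 0.65. There, 25 of the 36 did not overlap between the groups, against 13.0% of all genes. An unadjusted p under 0.05 with higher values in C362A was found for 18, against 1.21%. In that fit edgeR called 0 of all 18629 genes, so no member could stand out by a call. Both C362A libraries of run 1 had at most 0.0606 CPM of Y-linked transcripts, and its wildtype libraries had 125 and 113 CPM. Genotype and Y-linked expression therefore cannot be told apart in this comparison within run 1. Within run 2 (3 against 3), 16 of 36 were positive, against 51.9% of all genes, with a median of −0.072. In run 2 edgeR called 2 members higher, Apobec3 at 0.56 (adjusted p = 0.0218) and Ifit2 at 0.47 (adjusted p = 0.0386), against 5.07% of all genes. It called 1 lower, Mx1 at −2.11 (adjusted p = 0.0329), against 8.44% of all genes. The groups did not overlap in run 2 for 3 members higher in C362A (Apobec3, Ifit2 and Ifit3b), against 17.7% of all genes, and 3 lower (Mx1, Mx2 and Stat2), against 17.5%.

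Knockout against wildtype shares the wildtype libraries, and its values within runs were as follows. Within run 1, 36 of 36 members were positive, against 51.3% of all genes, with a median of 0.71. There, 29 of the 36 did not overlap between the groups, against 20.2% of all genes. For 20 the unadjusted p was under 0.05 with higher values in knockout, against 3.29%. In run 1, knockout replicate 2 had 0.188 CPM of Y-linked transcripts and knockout replicate 5 had 160 CPM. Within run 2, 19 of 36 were positive, against 51.1% of all genes, with a median of 0.01. C362A against knockout, which does not use the wildtype libraries, had 15 of 36 members positive in run 1 and 16 in run 2, with medians of −0.04 and −0.10.

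A fit with a genotype by run term tested that difference for each gene. For C362A against wildtype no member was called, against 1.42% of all genes, the smallest adjusted p being 0.0677 for Mx1, with a difference of 3.44 between run 1 and run 2. At an unadjusted p under 0.05, 10 members had a larger value in run 1, against 10% of all genes, and the median difference was 0.75. For knockout against wildtype no member was called, against 0% of all genes, 8 members were larger in run 1 at an unadjusted p under 0.05, against 6.54%, and the median difference was 0.66. Apobec3 hardly differed between runs in C362A against wildtype, at 0.55 in run 1 and 0.56 in run 2. Isg15 had 1.74 in run 1 and 0.16 in run 2, and Oas2 1.08 and −0.67. Wildtype replicate 4, the library highest for most members, is in run 2, and its part in the contrast of runs was not tested.

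**Figure D4:**
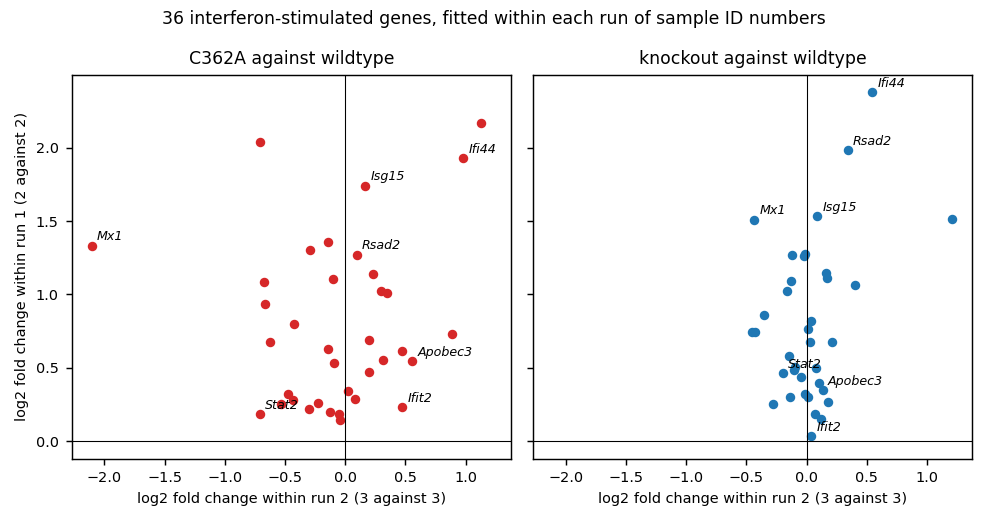
Log2 fold change of the 36 members within run 2 (x axis, 3 libraries against 3) and run 1 (y axis, 2 against 2) of the sample ID numbers, for C362A and for knockout against wildtype. All 36 points lie above 0 on the y axis in both panels, while 16 and 19 lie right of 0 on the x axis.

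The summed level of the members was set beside that of 6 enterocyte markers (Vil1, Cdx2, Cdh17, Fabp1, Apoa1 and Epcam), all counted in every library. Summed enterocyte markers ranged from 5494 to 11658 CPM in wildtype (median 7660), from 7197 to 8536 CPM in knockout (median 8346) and from 4851 to 7888 CPM in C362A (median 5673). Within wildtype and within C362A, the library with the highest member sum also had the highest enterocyte sum: wildtype replicate 4 had 584 and 11658 CPM, and C362A replicate 5 had 591 and 7888 CPM. In knockout the highest member sum, 584 CPM in replicate 2, came with 8346 CPM of enterocyte markers, the median of that genotype. All 6 enterocyte markers had negative fold changes in C362A against wildtype, with a median of −0.17, and none was called. The part of epithelial content in the member values was not tested.

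**Figure D5:**
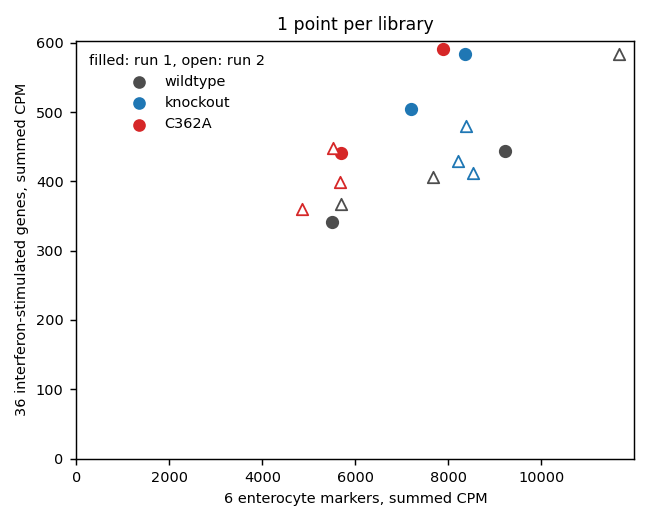
Summed CPM of the 36 members against summed CPM of 6 enterocyte markers, 1 point per library, coloured by genotype and filled for run 1. Wildtype 4 is at 11658 and 584 CPM and wildtype 1 at 5494 and 342 CPM, while the 5 knockout libraries differ in member level at 7197 to 8536 CPM of markers.

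Markers of immune cells were read the same way. All 12 macrophage and monocyte markers were counted in every library, and their sum ranged from 221 to 335 CPM in wildtype, 258 to 332 CPM in knockout and 281 to 351 CPM in C362A. In C362A against wildtype 11 of the 12 were positive, with a median of 0.19. Of the 12, 1 was called, against 0.0817% of all genes: Adgre1 at 0.75 (SE 0.13, edgeR adjusted p = 0.0361). Plasmacytoid dendritic cell markers, of which 6 of 7 were tested, summed to 11.0 to 28.1 CPM in wildtype, 8.23 to 16.8 CPM in knockout and 14.6 to 19.7 CPM in C362A. C362A replicate 5, the highest for the members, was the lowest C362A library for the plasmacytoid markers, at 14.6 CPM, and stood at 282 CPM of macrophage markers, against 281 CPM in the lowest C362A library. Neutrophil markers, of which 7 of 8 were tested, summed to 7.57 to 30.4 CPM in wildtype, 9.70 to 51.8 CPM in knockout and 9.80 to 71.4 CPM in C362A, where replicate 5 was the lowest. All 7 were positive in C362A against wildtype, with a median of 0.82, and in knockout against wildtype, with a median of 0.57, and none was called. Of 8 markers of T, NK and innate lymphoid cells 5 were tested, with 2 positive, a median of −0.06 and none called in C362A against wildtype. Wildtype replicate 4, the highest for the members, was also the highest wildtype library for each of these immune lists. It had 335 CPM of macrophage, 28.1 CPM of plasmacytoid, 30.4 CPM of neutrophil and 42.8 CPM of lymphoid markers. C362A replicate 5 was the highest C362A library for the lymphoid markers, at 28.6 CPM. Knockout replicate 2 was neither highest nor lowest of its genotype for the macrophage, plasmacytoid, neutrophil or lymphoid markers. The part of immune cells in the member values was not tested.

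The members varied more between libraries of 1 genotype than most genes. Their median SD within genotypes was 0.41 on the log2 CPM scale, against 0.20 over all genes tested. Low counts widen such a spread, and where the mean level reached 2 on the log2 CPM scale it was 0.26 for 18 members against 0.16 for 13114 genes. Mx1 varied most, with an SD of 0.97, and then Ifit3 with 0.89, while Eif2ak2, Apobec3 and Dtx3l varied least, with 0.14, 0.14 and 0.16.

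Most members varied together across the 15 libraries once genotype means were subtracted. The correlation of a member with the mean of the other 35 was highest for Oasl2 (0.96), Ddx58 (0.95) and Irf7 (0.94). It was lowest for Ifit2 (−0.46), Herc6 (0.31) and Apobec3 (0.44). Ifit2 and Apobec3 were also the 2 members with the smallest p in C362A against wildtype. Spread within genotypes enters both the correlation and the p, so these rankings are not independent. All genes of a library share its depth and tissue makeup, and makeup differed between the 15 libraries. Summed enterocyte markers, for example, ran from 4851 to 11658 CPM. The part of tissue makeup in these correlations was not tested. How many of all genes correlate as highly was not counted, so the correlations are not shown to be particular to the members. Outside the members, the genes most like their mean were Mertk (0.94), a receptor for the uptake of dead cells, Brpf3 (0.93), Dcst1 (0.93), Znfx1 (0.93), Slc25a42 (0.92), 9630028B13Rik (0.92), Rab42 (0.92), Arhgef18 (0.92), Bdh2 (0.92) and Lgals8 (0.92).

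Upstream of the members, transcripts of the interferons themselves were at or under 3 counts in every library. Of 21 interferon genes, 15, Ifnb1 among them, had no count in any library and none passed the filter, so no fold change is given. A count of 0 allows up to 3 counts, or 0.0941 CPM in the smallest library, and covers counting error only.

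Receptors, kinases and factors of the pathway numbered 18, all tested. In C362A against wildtype 9 were positive and 9 negative, with a median of −0.02, and edgeR called 0, against 0.0817% of all genes. By unadjusted p under 0.05, 1 was higher, against 8.08% of all genes, and 3 lower, against 1432 of 18370 genes. Tyk2, a receptor kinase, had −0.29 (SE 0.10, edgeR adjusted p = 0.285), Irf3, which turns on interferon genes, had −0.20 (SE 0.07, edgeR adjusted p = 0.285), and Jak1 had 0.21 (SE 0.08, edgeR adjusted p = 0.285). In knockout against wildtype 10 of the 18 were positive and 0 were called, against 0.0381% of all genes. None passed an unadjusted p under 0.05, against 1.20% of all genes higher.

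Nucleic acid sensing, with 21 genes tested, had 13 positive, a median of 0.06 and 0 called in C362A against wildtype. By unadjusted p under 0.05, 4 were higher, against 8.08% of all genes, and 1 lower, against 1432 of 18370 genes. Tlr9, a receptor for unmethylated DNA, had 0.83 (SE 0.30, edgeR adjusted p = 0.285), Tlr4 0.50 (SE 0.19, edgeR adjusted p = 0.285), and Tmem173 (STING) 0.20 (SE 0.08, edgeR adjusted p = 0.288). Tlr4 is a receptor for bacterial lipopolysaccharide and not for nucleic acid, but it was on this list and is among the 4 higher genes. In knockout against wildtype 12 were positive, 0 called, and 1 higher at an unadjusted p under 0.05, against 1.20% of all genes.

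A list of 42 other interferon-stimulated genes, 41 of them tested, had 23 positive with a median of 0.03 in C362A against wildtype. The chemokine Cxcl10 was called, against 0.0817% of all genes. By unadjusted p under 0.05, 10 were higher, against 8.08% of all genes, and 3 lower, against 1432 of 18370 genes. Cxcl10 ranged from 0.560 to 0.850 CPM in wildtype, from 1.62 to 2.94 CPM in knockout and from 3.36 to 5.42 CPM in C362A, with no overlap among the 3 genotypes. Over all genes, every C362A library lay above every wildtype library for 0.860% and above every knockout library for 1.11%. Every knockout library lay above every wildtype library for 68 of 18370 genes. Of the 41 genes tested in this list, 7 had every C362A library above every wildtype library. Cxcl10 rose in C362A against wildtype by 2.54 (SE 0.20, edgeR adjusted p = 8.0e-06) and in knockout against wildtype by 1.45 (SE 0.20, edgeR adjusted p = 0.0143). In knockout against wildtype 0.0381% of all genes were called. C362A against knockout had 1.10 (SE 0.19, edgeR adjusted p = 0.110). Ifitm3, which blocks viral entry, had 0.40 (SE 0.08, edgeR adjusted p = 0.162), and Slfn2 had 0.56 (SE 0.14, edgeR adjusted p = 0.285) in C362A against wildtype. The summed level of the 36 members, set mostly by abundant ones, and their mean log2 CPM overlapped between all 3 genotypes, as given above.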

How the data were processed

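Total RNA of 15 intestine samples was made into polyA libraries with a kit that does not mark strand and sequenced as single reads of 50 bases, per the labels' protocols. Reads were aligned with GSNAP to GRCm38, per the submitters' processing notes. The deposited counts are uniquely aligned reads per gene model, per the file headers, and the deposited RPKM values are adjusted by a size factor per library, per the file headers. The aligner version, the annotation and the way that factor was set were not given in the sources used here. RPKM served only to compare levels between genes.

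Counts were fitted with edgeR 4.0.16 (R 4.3.3): TMM factors, filterByExpr (minimum count 10, minimum total 15) and robust quasi-likelihood tests over 18370 genes, with 15 libraries in 1 fit and a biological coefficient of variation of 0.174. The script was tested on simulated data. Alternatives were RLE factors, library totals, DESeq2 1.42.0, limma-voom (limma 3.58.1), other filters, fits of only the compared groups, robust estimates off, a threshold of 0.1, a term for runs of sample ID numbers, and each library left out. A Y-linked term and fits with calls within runs were added after the data had been seen. Members and gene lists were chosen with earlier results of these data known. Members with values were the called ones, the 8 smallest p per comparison, the 3 highest and 3 lowest by RPKM and at least 1 per role. From other pathway lists the called genes and the 3 smallest p were named. Members named besides were chosen after their values were seen.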

Additional observations from a re-analysis of the deposited data

Results flagged for a closer look

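In 108 groups of 5 libraries (36 members in 3 genotypes), 1 library lay far from the other 4 in 13 groups, or 12.0%, where chance gives about 1 in 20. Over all genes tested the share was 6.28%, and members that vary together are not independent groups. A gap to the nearest library of more than 0.71 of the whole range counted as far. C362A replicate 5 was far above the other C362A libraries for Ifit1 (34.1 CPM, the next at 15.6), Ifit3 (3.78 CPM, the next at 1.001) and Ifit3b (1.079 CPM, the next at 0.434). It was also far above for Oasl1 (7.88 CPM, the next at 3.62), Usp18 (3.12 CPM, the next at 2.11) and Stat2 (62.7 CPM, the next at 37.9). Wildtype replicate 4 was far above the other wildtype libraries for Ifit3 (1.90 CPM, the next at 0.850), Irf9 (36.4 CPM, the next at 21.7) and Ddx60 (4.15 CPM, the next at 1.52). Knockout replicate 2 was far above the other knockout libraries for Mx2 (2.26 CPM, the next at 0.955) and Irf9 (35.0 CPM, the next at 25.3). Over all genes tested, C362A replicate 5 was far above for 3.77%, wildtype replicate 4 for 0.96% and knockout replicate 2 for 0.39%. A library was far below the others for 2 members. Apobec3 was at 8.48 CPM in knockout replicate 4, the next at 11.2 CPM, and Cmpk2 at 9.15 CPM in C362A replicate 1, the next at 10.5 CPM.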

How the results depend on the processing

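The number of members called in C362A against wildtype was 1 and became 0 with a term for Y-linked expression, an alternative chosen after seeing the data. It lay between 0 and 2 when 1 library was left out. It was 0 without any of C362A replicates 1 to 4 or wildtype replicates 1, 2, 3 or 5, where Apobec3 had adjusted p between 0.0568 and 0.12, and 2 (Apobec3 and Ifit2) without C362A replicate 5, where 4.29% of all genes were called higher. The other 2 comparisons had 0 members called under every alternative run for them on all 15 libraries or with 1 left out. The median of the members in C362A against wildtype was 0.29 and became 0.65 within run 1 and −0.072 within run 2 of the sample ID numbers. In knockout against wildtype it was 0.23 and became 0.71 within run 1 and 0.01 within run 2. With 1 library left out, the median lay between 0.14 and 0.40 in C362A against wildtype, between 0.11 and 0.44 in knockout against wildtype and between −0.19 and 0.14 in C362A against knockout. Among values of single members under an alternative with both runs in the fit, 585 kept their direction and their side of the threshold. In 9 the call of Apobec3 was lost, in 1 a call of Ifit2 was gained, and 0 reversed. The 585 include the median level per length, which is not a fold change. These members were picked for the smallest p per comparison, and most were uncalled to begin with. The 585 therefore do not measure how robust the 36 members are. No paired analysis was possible because the labels carry no replicate numbers. Members under 1 CPM rest on few reads, and requiring 1 CPM or more in 5 libraries leaves 31 of the 36.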

Other observations

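Other interferon-stimulated genes beyond the members, chosen here after their values were seen, did not all lie on one side in C362A against wildtype. The Schlafen gene Slfn5 measured 4.72 ± 0.760 CPM in wildtype, 6.92 ± 2.57 CPM in knockout and 7.06 ± 1.01 CPM in C362A (SD, n = 5), with a log2 fold change of 0.58 (SE 0.21, edgeR adjusted p = 0.285) for C362A against wildtype. The DNA-binding Ifi204 had 0.51 (SE 0.19, edgeR adjusted p = 0.285) and the nuclear body protein Sp100 0.64 (SE 0.30, edgeR adjusted p = 0.308). On the other side, Ifit1bl2 measured 58.0 ± 24.6 CPM in wildtype, 70.0 ± 4.52 CPM in knockout and 34.4 ± 11.8 CPM in C362A (SD, n = 5), with −0.75 (SE 0.28, edgeR adjusted p = 0.285). The RNA helicase Mov10 had −0.26 (SE 0.11, edgeR adjusted p = 0.295). None of these 5 was called.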
